A study of Mus musculus with 8 samples.

Results

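The genes described here encode enzymes and cofactors that write, maintain and remove DNA methylation. The set is made of Dnmt3a, Dnmt3b, Dnmt3l, Uhrf1, Tet1, Tet2 and Tdg, 7 of the 14715 protein-coding genes that could be tested. Each gene was taken as its RefSeq span on the mouse genome (build mm10) plus 5 kb on each side, called the extended span below, and together the 7 extended spans hold 11674 of the 30729668 cytosine positions read from the table. Dnmt1 and Tet3 lie on chromosomes that were not analysed here.

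Whole-genome bisulfite sequencing, which reads a methylated cytosine as C and an unmethylated one as T, was applied to DNA from flash-frozen livers of C57BL/6J males with genotype WT. The mice were bought at 8 weeks of age and spent 28 weeks on a normal diet (ND, 4 libraries) or on a diet rich in fat, cholesterol and fructose, whose group is named NASH after non-alcoholic steatohepatitis (4 libraries). The groups were taken from the sample titles and the matching column names. The treatment entry of the labels is crossed against those titles, and if that entry were the right one, every direction given here would reverse. Nothing states that the 4 libraries of a group came from separate mice, so each p-value measures the spread between libraries. The deposited values are percent methylation per CpG cytosine, with the cytosine of each strand listed on its own, and without read counts, which leaves the depth unknown. Mean methylation over all positions was 71.9% ± 0.516 (SD, n = 4) in ND and 71.5% ± 0.584 (SD, n = 4) in NASH, which did not differ beyond the spread (two-sided exact permutation p = 0.429). Liver is a mixture of cells, and in bulk DNA a changed share of a cell type and a change within cells cannot be told apart. All 8 hepatocyte marker genes were higher in NASH over the extended span at a limma adjusted p under 0.05, as were 5.99% of all extended spans. These markers were chosen with earlier results of these data known. The mean level at the ends of the 8 genes was 45.3 to 51.3% in NASH libraries against 34.8 to 37.6% in ND libraries.

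In mammals, Dnmt3a and Dnmt3b are the de novo methyltransferases, which place methyl groups on CpG dinucleotides that carried none, and Dnmt3l is a catalytically inactive partner that stimulates both and is best known from germ cells. Uhrf1 binds hemimethylated CpGs after replication and recruits Dnmt1, which copies the mark to the new strand. Tet1 and Tet2 oxidise 5-methylcytosine, and Tdg, a thymine DNA glycosylase, excises the further oxidised bases so that repair restores an unmethylated cytosine. Bisulfite sequencing does not separate 5-methylcytosine from 5-hydroxymethylcytosine, and methylation of these genes says nothing by itself of how much of each enzyme the tissue held. A low level at a CpG-dense promoter is the usual state in somatic tissue for genes with such promoters.

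RefSeq lists 12 transcription start sites for the 7 genes, each given here with the 300 bases from 250 before to 50 after the site (build GRCm38.p6, the assembly behind mm10). The 6 printed below show the range of CpG density that the start-site levels followed: the 3 sites of Dnmt3l hold few CpGs, the internal site of Dnmt3a a moderate number, and those of Uhrf1 and Tet2 many. Sequences are from RefSeq, written 5′ to 3′ along the gene, and capitals mark each CpG, the dinucleotide whose cytosine was measured.
Dnmt3l start site 1, chr10:78042037-78042336, plus strand: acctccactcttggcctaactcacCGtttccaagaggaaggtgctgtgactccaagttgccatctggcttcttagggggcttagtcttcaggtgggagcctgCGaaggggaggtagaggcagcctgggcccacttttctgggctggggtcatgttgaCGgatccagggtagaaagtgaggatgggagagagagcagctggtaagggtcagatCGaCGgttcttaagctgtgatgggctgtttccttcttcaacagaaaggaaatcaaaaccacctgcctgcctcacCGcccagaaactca
Dnmt3l start site 2, chr10:78049592-78049891, plus strand: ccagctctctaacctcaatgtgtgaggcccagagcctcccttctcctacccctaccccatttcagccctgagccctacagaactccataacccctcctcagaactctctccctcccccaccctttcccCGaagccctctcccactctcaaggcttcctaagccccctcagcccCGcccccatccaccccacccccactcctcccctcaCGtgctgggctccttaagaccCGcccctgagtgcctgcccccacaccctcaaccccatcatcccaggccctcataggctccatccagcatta
Dnmt3l start site 3, chr10:78055085-78055384, plus strand: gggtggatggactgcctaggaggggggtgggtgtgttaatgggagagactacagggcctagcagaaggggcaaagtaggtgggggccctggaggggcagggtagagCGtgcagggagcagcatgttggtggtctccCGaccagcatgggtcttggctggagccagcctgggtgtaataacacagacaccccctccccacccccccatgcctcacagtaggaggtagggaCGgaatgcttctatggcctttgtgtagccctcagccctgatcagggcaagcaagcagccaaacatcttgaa
Dnmt3a start site 3, chr12:3891494-3891793, plus strand: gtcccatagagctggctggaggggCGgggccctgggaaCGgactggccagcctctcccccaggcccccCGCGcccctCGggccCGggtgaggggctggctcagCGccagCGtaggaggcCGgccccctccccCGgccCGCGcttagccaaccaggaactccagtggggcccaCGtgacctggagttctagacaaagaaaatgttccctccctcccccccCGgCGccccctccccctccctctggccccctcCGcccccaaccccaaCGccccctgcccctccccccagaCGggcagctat
Uhrf1 start site 2, chr17:56304063-56304362, plus strand: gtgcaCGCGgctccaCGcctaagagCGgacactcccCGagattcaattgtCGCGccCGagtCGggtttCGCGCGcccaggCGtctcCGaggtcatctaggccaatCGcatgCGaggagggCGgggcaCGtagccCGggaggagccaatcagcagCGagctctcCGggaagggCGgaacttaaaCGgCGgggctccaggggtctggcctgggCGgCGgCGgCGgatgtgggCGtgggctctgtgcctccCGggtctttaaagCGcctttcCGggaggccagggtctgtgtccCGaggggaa
Tet2 start site, chr3:133544341-133544640, minus strand: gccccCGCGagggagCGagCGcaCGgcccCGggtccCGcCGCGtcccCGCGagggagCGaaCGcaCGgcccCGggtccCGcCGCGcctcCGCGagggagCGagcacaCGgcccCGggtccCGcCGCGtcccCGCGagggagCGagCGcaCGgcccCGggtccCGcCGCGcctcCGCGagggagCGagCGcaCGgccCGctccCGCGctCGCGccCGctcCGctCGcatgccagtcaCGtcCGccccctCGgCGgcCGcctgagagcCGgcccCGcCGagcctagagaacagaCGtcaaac

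The Dnmt3l sequences hold 6, 4 and 3 CpGs, the Dnmt3a sequence 18, the Uhrf1 sequence 33 and the Tet2 sequence 57. The median over all 32851 RefSeq start sites is 7 CpGs, and 99.8% of them hold fewer than Tet2. The other start sites, not printed, hold 46 and 47 CpGs in Dnmt3a, where both sequences overlap each other, 30 in Dnmt3b, 26 in Tdg, 17 in Tet1 and 12 at the first site of Uhrf1. The GC box core GGGCGG, searched on both strands, occurs in 35.7% of RefSeq start-site sequences, and in at least 1 of those of every gene here except Tdg; it holds a CpG and does not overlap the other motif searched. The motif CCAAT, also searched on both strands, occurs in 37.4% of them, and here in those of Uhrf1 and Tdg.

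At the 9 CpG-rich start sites of Dnmt3a, Dnmt3b, Uhrf1, Tet1, Tet2 and Tdg, methylation was near 0 in both diets, and at the 3 CpG-poor start sites of Dnmt3l it was intermediate or high. The mean was 0.538% in ND and 0.941% in NASH at the first site of Dnmt3a, 0.887% and 0.532% at its second site, 1.38% and 2.32% at Dnmt3b, 0.714% and 1.0% at Tet2, and 0.497% and 0.561% at Tdg. Tet1 had the highest level of these 9 sites, 3.77% ± 0.921 in ND and 4.39% ± 4.33 in NASH (SD, n = 4 each). Among these sites 82.9 to 99.2% of all values were an exact 0, and the files do not tell a 0 read on many molecules from a 0 at a position with few or no reads. Over the start sites tested, those with 12 to 60 CpGs had a median ND level of 1.07%, and 95.9% of them were under 20%. Those with 3 to 6 CpGs had a median of 72.2%, and 63.2% of them were over 60%. The split within the 7 genes thus ran the same way as CpG number over all start sites tested.

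The first start site of Dnmt3l had 96.0%, 88.6%, 83.4% and 70.1% methylation in the ND libraries and 65.0%, 81.2%, 71.5% and 75.0% in the NASH libraries. The groups overlapped, and the difference of -11.4 percentage points did not pass (limma adjusted p = 0.659). Its 6 CpGs were all well methylated in ND, from 65.8% at the fourth CpG of the printed sequence to 100% at the one after the first, and the NASH mean was below the ND mean at 5 of the 6. The second site, within the gene, had 32.9% ± 6.98 in ND and 31.2% ± 17.0 in NASH (SD, n = 4 each), and the third 84.6% ± 9.02 and 78.9% ± 6.69. Neither differed beyond the spread. With so few CpGs, the mean of a site rests on 7 to 12 cytosines per library.

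Both start sites of Uhrf1 had lower means in NASH. The first was at 4.40%, 4.17%, 2.43% and 2.82% in ND and 2.10%, 2.78%, 0.595% and 0% in NASH, with an unadjusted limma p of 0.0314 and an adjusted p of 0.551. The second was at 0.505%, 7.17%, 0.758% and 1.26% in ND and at 0 in 3 NASH libraries and 0.253% in the other. The groups at this second site did not overlap, which happened in the same direction at 2.66% of all start sites tested, and its ND mean rests on 1 library (adjusted p = 0.704). None of the 12 start sites passed the adjusted test, against 0.0113% of the 17641 start sites called (2 sites), and 8.34% of all sites had an unadjusted p under 0.05.

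**Figure D1:**
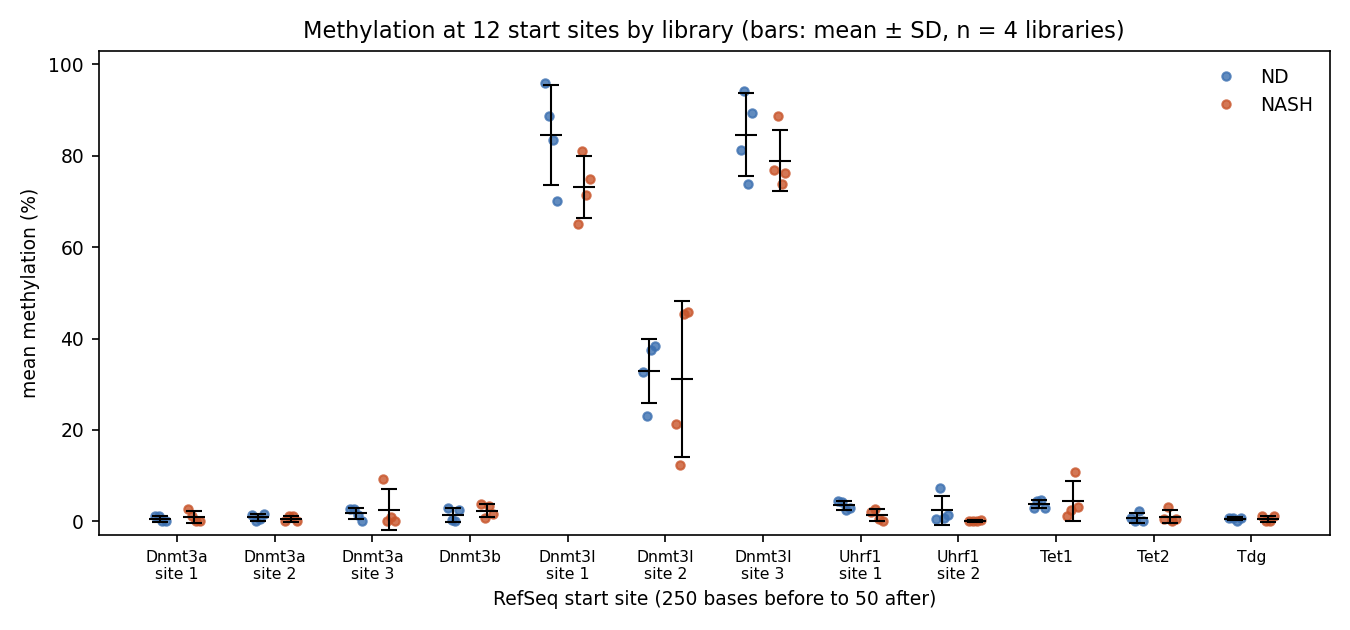
Mean percent methylation in each library at the 12 RefSeq start sites of the 7 genes (points, libraries; bars, mean ± SD, n = 4 per diet). The 3 sites of Dnmt3l lie between 12.3 and 96.0%, and every value of the other 9 sites is under 11%.

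Across the extended spans, Dnmt3l was the one gene of the 7 whose methylation differed between the diets after adjustment. It was lower in NASH. The ND libraries were at 74.6%, 75.9%, 76.4% and 76.8% and the NASH libraries at 73.5%, 72.9%, 73.0% and 74.1%. Every NASH library was below every ND library, as in 8.15% of all spans, and the mean fell from 75.9% ± 0.957 to 73.4% ± 0.530 (SD, n = 4 each), a difference of -2.53 percentage points (SE 0.540, 95% confidence interval -3.76 to -1.30, limma adjusted p = 0.0236). Of all 14715 extended spans, 9.28% were called at an adjusted p under 0.05, 3.3% as lower in NASH and 5.99% as higher, and with 7 genes a single call is close to that share. A difference more negative than that of Dnmt3l was found in 4.07% of the spans. The call is not firm: it was lost when any of 5 single libraries was left out (NASH replicate 1 or 2, ND replicate 2, 3 or 4), with adjusted p from 0.0164 to 0.0650 over the 8 such fits. It was also lost, at -1.67 points with an adjusted p of 0.171, when isolated zeros among methylated neighbours were left out, values that made up 4.14% of the Dnmt3l positions per NASH library (2.61 to 5.85%) and 2.95% per ND library (1.99 to 3.61%).

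Dnmt3l covers 21.3 kb of chromosome 10 on the plus strand (chr10:78042287-78063622), and its 5′ end overlaps that of Aire, a transcriptional regulator of the thymus encoded on the minus strand. The lower level was spread along the gene and did not sit at a single place. Without the flanks, the gene itself went from 74.8% ± 0.625 to 72.4% ± 0.760 (SD, n = 4 each), by -2.45 points (limma adjusted p = 0.0255, where 2.75% of all genes were called lower). That call too was lost without NASH replicate 1 or ND replicate 2, 3 or 4 (adjusted p 0.0392 to 0.0667 over the 8 such fits). The mean was also lower in the 5 kb before the gene, by -2.93 points, and in the 5 kb after it, by -2.53 points, although neither flank passed alone (adjusted p = 0.310 and 0.489; 2.74% and 2.86% of all such flanks were called). In windows of 1000 bases, 26 of its 29 windows had a lower mean in NASH, against 57.8% of all windows, and 19 of its 20 windows with an ND level over 80% did, against 67.0% of all windows that high. The median window difference was -2.97 points in Dnmt3l and -0.63 over all windows. These windows make up the span that was called, so their shared direction adds no separate evidence. Neighbouring windows also share cells and libraries. No single window passed, and 3 (10.3%) had an unadjusted p under 0.05, against 10.9% of all windows.

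The ends of the gene, each taken from 1000 bases outside to 500 bases inside, had wide gaps between the means. At the start end, the ND libraries were at 86.9%, 87.4%, 79.8% and 81.8% and the NASH libraries at 74.1%, 82%, 63.0% and 72.2%. The ranges overlap through 1 NASH library, and the difference of -11.1 points had an unadjusted limma p of 0.0217 and an adjusted p of 0.277. At the far end the mean was 84.9% ± 2.17 in ND and 79.0% ± 4.30 in NASH (SD, n = 4 each; adjusted p = 0.324). Over all 29125 gene ends 0.0103% were called.

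When the positions of Dnmt3l were split by CpG density, the sparse ones were lower in NASH. Positions with fewer than 20 listed cytosines within 200 bases, 743 of the gene's 804, were at 79.4%, 80.4%, 81.3% and 81.4% in ND and 77.5%, 77.5%, 77.7% and 78.6% in NASH. The groups did not overlap, and the difference was -2.77 points (SE 0.540, limma adjusted p = 0.0103, with 5.66% of all genes called lower on this measure and 9.22% without overlap in that direction). The sparse positions stayed past the threshold whichever library was left out (adjusted p 0.0102 to 0.0332), but not with isolated zeros left out (-1.89 points, adjusted p = 0.129) or with every zero left out (-1.94 points, adjusted p = 0.0878). The 61 dense positions were at 18.6% ± 2.5 and 19% ± 4.21 (SD, n = 4 each), a difference of 0.416 points (adjusted p = 0.974). Of these, 49 lie in the one window of the gene under 20%, from 78043001 on chromosome 10, about 1.21 kb inside the gene, which holds the RefSeq start site of Aire (position 78043610). That window was at 18.9% ± 2.04 in ND and 19.4% ± 1.82 in NASH, and the 300 bases of the Aire start site at 9.25% ± 2.82 and 9.64% ± 5.46 (SD, n = 4 each). Whether the dense and the sparse positions differed in their change was not tested.

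Where markers of blood, scar-forming and duct cells were called over the extended span, they were lower in NASH, the direction of Dnmt3l. Over all spans 3.3% were called lower and 60.1% had a lower mean. These marker lists, too, were chosen with earlier results of these data known. Of 7 measured neutrophil markers 3 were called lower in NASH, of 7 macrophage markers 1, of 6 lymphocyte markers 1, of 7 stellate and matrix markers 1, of 7 cholangiocyte markers 2 and of 6 endothelial markers 0. The mean level at the ends of the neutrophil genes was 75.5 to 78.2% in ND libraries and 72.2 to 73.8% in NASH libraries, and at those of the lymphocyte genes 79.4 to 82.4% and 75.4 to 77.7%. The ends of macrophage genes were at 65.2 to 66.6% and 63.3 to 64.1%, also without overlap. The ranges overlapped for stellate and matrix genes (57.2 to 61.6% in ND, 55.3 to 57.8% in NASH) and cholangiocyte genes (44.1 to 46.4% and 43.7 to 46.1%). They did not for endothelial genes (62.7 to 64.2% and 59.9 to 62.5%). Over all gene ends the median difference was -0.18 points. How often the averages of other gene lists lie apart in this way was not tested. Of 4 germline genes, a class highly methylated in somatic tissue, 0 were called. The part of other cells in the Dnmt3l difference was not tested. The 3 genes on other chromosomes with the most similar levels over the 8 libraries were Cyp2c39, a cytochrome P450 with close copies beside it, Fbln5, an extracellular matrix protein, and Fam110b, with mean absolute differences of 0.378, 0.575 and 0.601 percentage points from Dnmt3l.

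**Figure D2:**
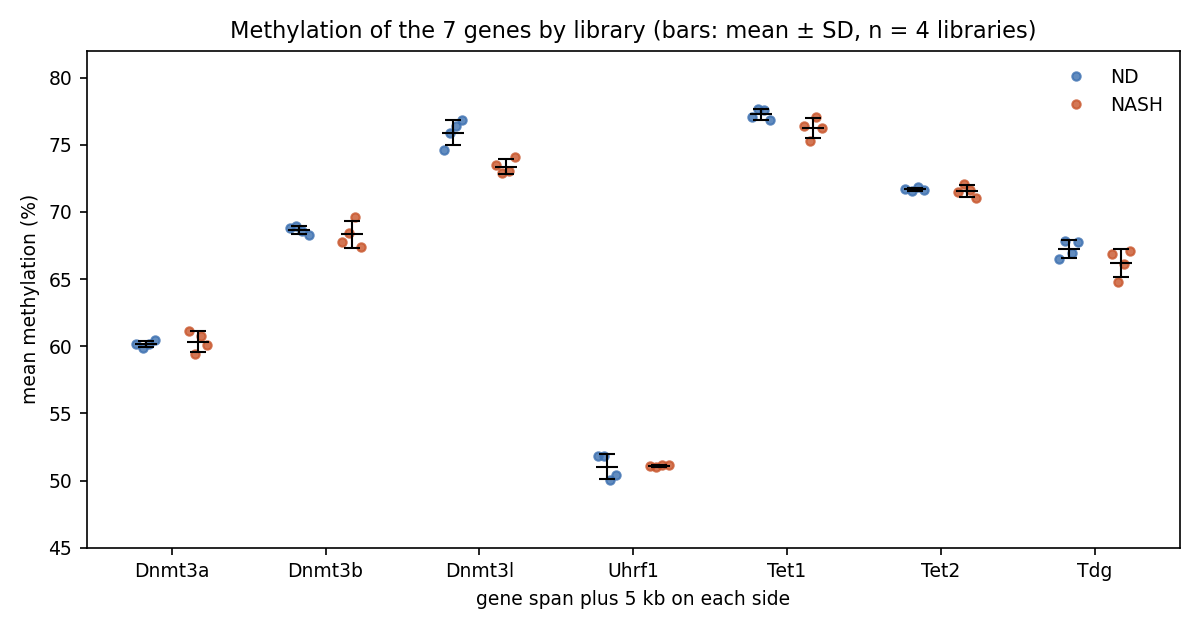
Mean percent methylation of the 7 extended gene spans in each library (points, libraries; bars, mean ± SD, n = 4 per diet; the axis does not start at 0). Dnmt3l is the gene whose 4 NASH libraries (72.9 to 74.1%) all lie below its 4 ND libraries (74.6 to 76.8%).

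The other methyltransferases, Dnmt3a and Dnmt3b, had almost the same level over the whole span in both diets. Dnmt3a (chr12:3801559-3914443, plus strand, 112.9 kb) was at 60.2%, 59.9%, 60.2% and 60.5% in ND and 61.1%, 59.4%, 60.8% and 60.1% in NASH. The ND values fall within the NASH range, and the difference was 0.16 points, with a 95% interval from -0.91 to 1.22 (limma adjusted p = 0.875). With every zero left out it was -1.53 points, the other sign (adjusted p = 0.254). Dnmt3b (chr2:153649411-153687730, plus strand, 38.3 kb) was at 68.8%, 69.0%, 68.6% and 68.3% in ND and 67.8%, 68.5%, 69.7% and 67.4% in NASH. Here too the groups overlap, with a difference of -0.35 points and an interval from -1.54 to 0.85 (adjusted p = 0.734); it was -0.79 without NASH replicate 3, -0.16 without NASH replicate 1 and -0.044 without NASH replicate 4. Whether the genes differ from each other in their change was not tested.

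The average of Dnmt3a runs over windows with a higher and windows with a lower mean in NASH. Of its 122 windows 25 had an unadjusted p under 0.05, which is 20.5% of them against 10.9% of all windows, with 14 higher and 11 lower in NASH. None passed the adjustment over all 1609826 windows, of which 4 were called (0.000248%). In 8 windows every NASH library was above every ND library and in 7 every one was below, where 2.78% and 3.71% of all windows did so. Dnmt3a also has more windows at middle levels, 47.5% between 20 and 80% in ND against 40.3% of all windows. Among its 58 middle windows 14 had an unadjusted p under 0.05, against 11.7% of all middle windows. Neighbouring windows share cells and libraries, and no test of the count was made.

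The Dnmt3a window with the smallest p began at 3858001 on chromosome 12, 56.9 kb into the gene. Its ND libraries were at 36.5%, 32.7%, 32.6% and 29.5% and its NASH libraries at 45.6%, 48.8%, 52.4% and 52.5%. All NASH libraries were above all ND libraries, and the difference of 17.0 points on 22 positions (SE 2.48) did not pass (limma adjusted p = 0.0983). In this and the other genes, the window with the smallest p was picked by that p. A lack of overlap in it therefore adds no separate evidence. The windows that follow were chosen after their values were seen. The window from 3860001, within the span of the lncRNA Dnmt3aos, went from 32.9% ± 4.61 to 52.6% ± 10.8 (adjusted p = 0.227), and the one from 3851001 from 64.0% ± 3.07 to 77.6% ± 4.72 (adjusted p = 0.182). In the other direction, the window from 3872001 went from 76.0% ± 8.14 to 55.6% ± 10.9 (adjusted p = 0.274) and the one from 3823001 from 90.8% ± 1.81 to 76.4% ± 5.81 (adjusted p = 0.144; SD, n = 4 each throughout).

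Next to the internal start site of Dnmt3a printed above, the window from 3890001 was at 21.7% ± 10.9 in ND and 36.6% ± 8.92 in NASH (SD, n = 4 each; adjusted p = 0.407). The start site itself was unmethylated in both, at 1.70% ± 1.29 and 2.55% ± 4.50 (SD, n = 4 each). The NASH mean of that site came from 1 library, at 9.26%. The start sites near the 5′ end of the gene lie in windows at 0.749% and 0.618% in ND, next to a window at 83.4% on their upstream side.

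**Figure D3:**
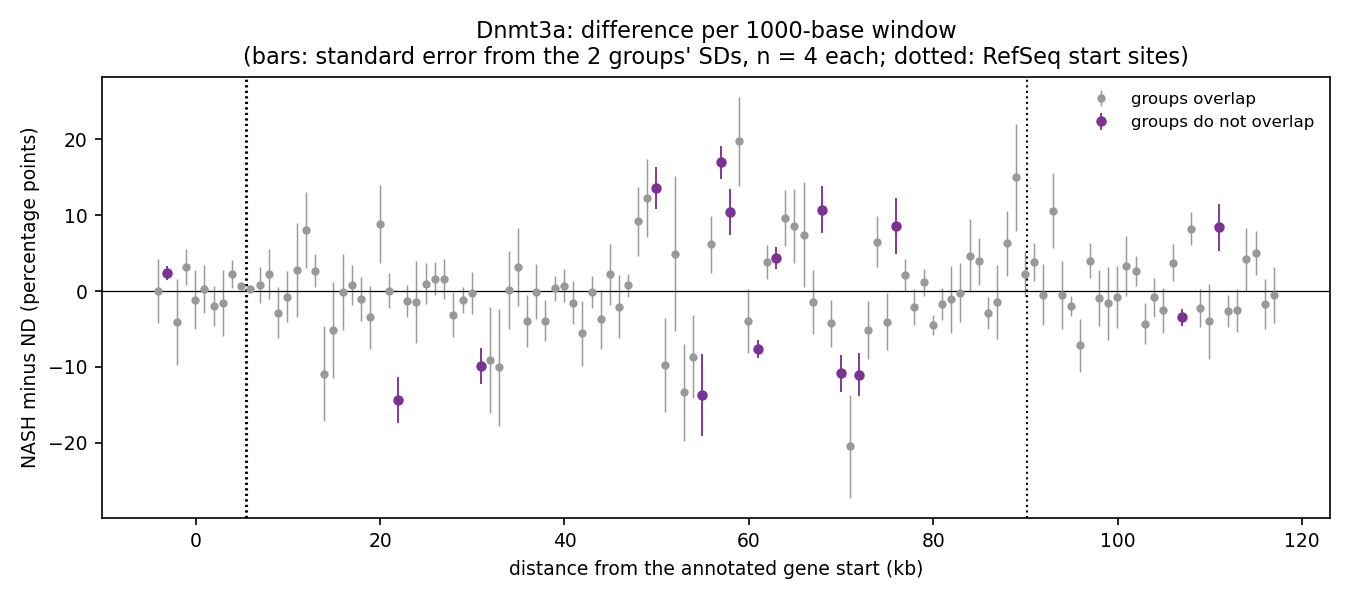
NASH minus ND difference in mean methylation (percentage points) of each 1000-base window of Dnmt3a against the distance from the annotated gene start in kb. Bars are the standard error from the SDs of both groups (n = 4 each), purple marks windows whose groups do not overlap and dotted lines mark the RefSeq start sites. Differences run from -20.4 to 19.7 points, with most of the largest in the middle of the gene.

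Of the 47 windows of Dnmt3b, 1 was under 20% in ND, at the start of the gene, 11 were between 20 and 80% and 35 were higher. The window with the smallest p, from 153654001 on chromosome 2, was at 82.8% ± 0.623 in ND and 88.7% ± 1.72 in NASH (SD, n = 4 each; adjusted p = 0.200), with no overlap between the groups. The widest mean gap of the gene, in the window from 153657001, had a wide spread within each diet, with 39.8%, 13.9%, 37.6% and 23.8% in ND and 33.2%, 31.3%, 70.5% and 50.8% in NASH. Those groups overlapped (limma adjusted p = 0.537).

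Uhrf1 (chr17:56303337-56323486, plus strand, 20.1 kb) had the lowest span level of the 7 genes and no difference beyond the spread. The ND libraries were at 51.8%, 51.8%, 50.1% and 50.4% and the NASH libraries at 51.1%, 51.0%, 51.2% and 51.2%, a difference of 0.06 points (95% interval -1.13 to 1.25, limma adjusted p = 0.959). The extended span holds its unmethylated start and a second unmethylated stretch in the 5 kb after the gene, where Kdm4b, a histone demethylase gene, begins. That flank was at 17.1% ± 0.917 in ND and 18.3% ± 2.16 in NASH (SD, n = 4 each; adjusted p = 0.598). The window with the smallest p, from 56304001, holds the second start site. It was at 5.17%, 11.4%, 5.95% and 7.5% in ND and 4.46%, 4.69%, 3.08% and 4.25% in NASH, without overlap, a difference of -3.38 points on 142 positions (SE 1.23, adjusted p = 0.365). As at the start site within it, ND replicate 2 was the highest, and without it the difference was -2.08 points.

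Tet1, Tet2 and Tdg, the genes of active demethylation, had lower means in NASH over the extended span, and none passed. With Dnmt3b and Dnmt3l that makes 5 of the 7 genes with a lower mean, as had 60.1% of all spans. Tet1 (chr10:62804570-62887469, minus strand, 82.9 kb) was at 77.0%, 77.7%, 77.6% and 76.8% in ND and 76.4%, 75.3%, 77.0% and 76.2% in NASH. The groups overlapped through 1 NASH library, and the difference of -1.05 points (95% interval -2.08 to -0.01) had a limma p of 0.0483 and an adjusted p of 0.196, where 25.0% of all spans had an unadjusted p under 0.05. Tdg (chr10:82629814-82650799, plus strand, 21.0 kb) was at 66.5%, 67.8%, 67.0% and 67.8% in ND and 66.9%, 64.8%, 66.1% and 67.1% in NASH, a difference of -1.05 points with an interval from -2.42 to 0.32 (adjusted p = 0.323); without NASH replicate 2 it was -0.57. Tet2 (chr3:133463677-133545136, minus strand, 81.5 kb) was at 71.7%, 71.6%, 71.8% and 71.6% in ND and 71.5%, 72.1%, 71.7% and 71.0% in NASH, a difference of -0.12 points with an interval from -0.91 to 0.66 (adjusted p = 0.865).

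Of the 90 windows of Tet1, 61 had a lower mean in NASH (67.8%), against 57.8% of all windows. Among its 74 windows over 80% in ND, 55 had a lower mean in NASH, against 67.0% of all windows that high. An unadjusted p under 0.05 was found in 10 windows (11.1%, against 10.9% of all windows), each with a lower mean in NASH; among all windows over 80% with such a p, 79417 were lower and 13089 higher. The window with the smallest p lay 4.03 kb upstream of the gene, from 62891001 on chromosome 10. It was at 91.2%, 86.7%, 89.8% and 90.9% in ND and 78.5%, 80.5%, 83.4% and 82.1% in NASH, without overlap, a difference of -8.53 points (SE 1.74, adjusted p = 0.150). Tet1 also has an unmethylated window inside the gene, from 62865001, about 22.0 kb from its start, at 5.30% ± 2.96 in ND and 2.74% ± 1.10 in NASH (SD, n = 4 each; adjusted p = 0.541). The annotated span of the lncRNA Gm51805 has one of its boundaries in that window.

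Tet2 had windows in which the diets stood apart, and none passed. In 3 windows every NASH library was above every ND library, as in 2.78% of all windows. In 5 windows every one was below, as in 3.71%. The window with the smallest p, from 133540001 on chromosome 3, lay 4.64 kb into the gene. It was at 45.2%, 41.4%, 42.9% and 43.1% in ND and 56.9%, 62.1%, 57.0% and 58.6% in NASH. Every NASH library was above every ND library, and the difference of 15.5 points on 14 positions (SE 2.43) had an adjusted p of 0.104. Further in, and chosen after its values were seen, the window from 133526001 had the lower mean in NASH, at 86.0% ± 4.86 in ND and 71.5% ± 4.16 in NASH (SD, n = 4 each; adjusted p = 0.165). Of the 79 Tet2 windows 11 had an unadjusted p under 0.05 (13.9%, against 10.9% of all windows), with 3 higher and 8 lower. In Tdg the window with the smallest p, from 82625001 on chromosome 10 and 4.31 kb before the gene, was at 70.4% ± 3.14 in ND and 80.2% ± 4.95 in NASH on 8 positions (SD, n = 4 each; adjusted p = 0.297).

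**Figure D4:**
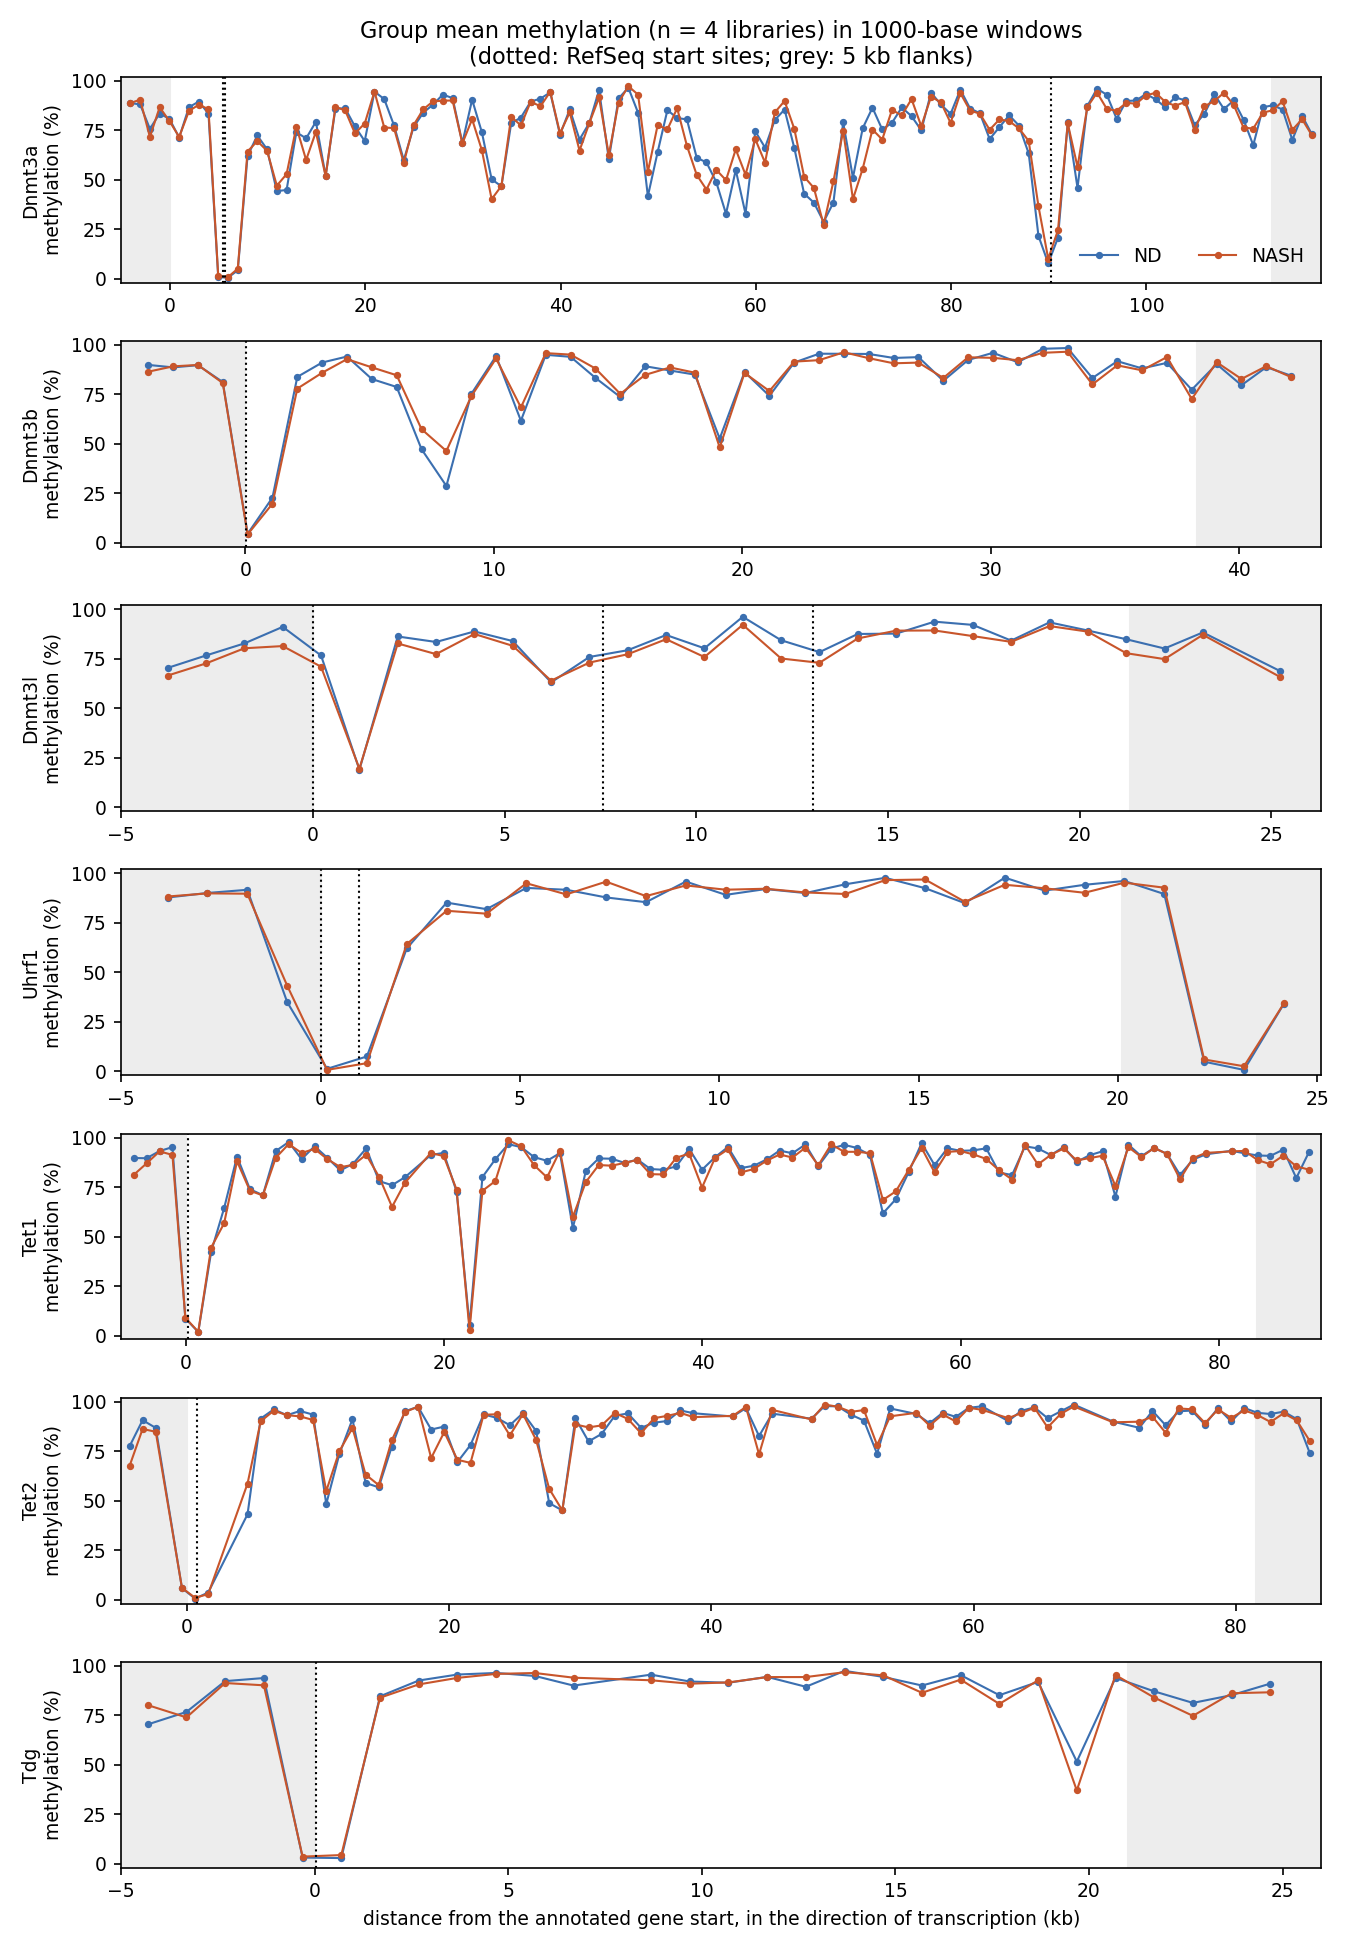
Group mean methylation (%, n = 4 libraries) in 1000-base windows along each gene, against the distance in kb from its annotated start in the direction of transcription. Dotted lines mark RefSeq start sites and grey the 5 kb flanks. Each gene except Dnmt3l drops to under 10% at a start site; the low window of Dnmt3l, at 18.9% in ND, lies beside its first site.

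**Figure D5:**
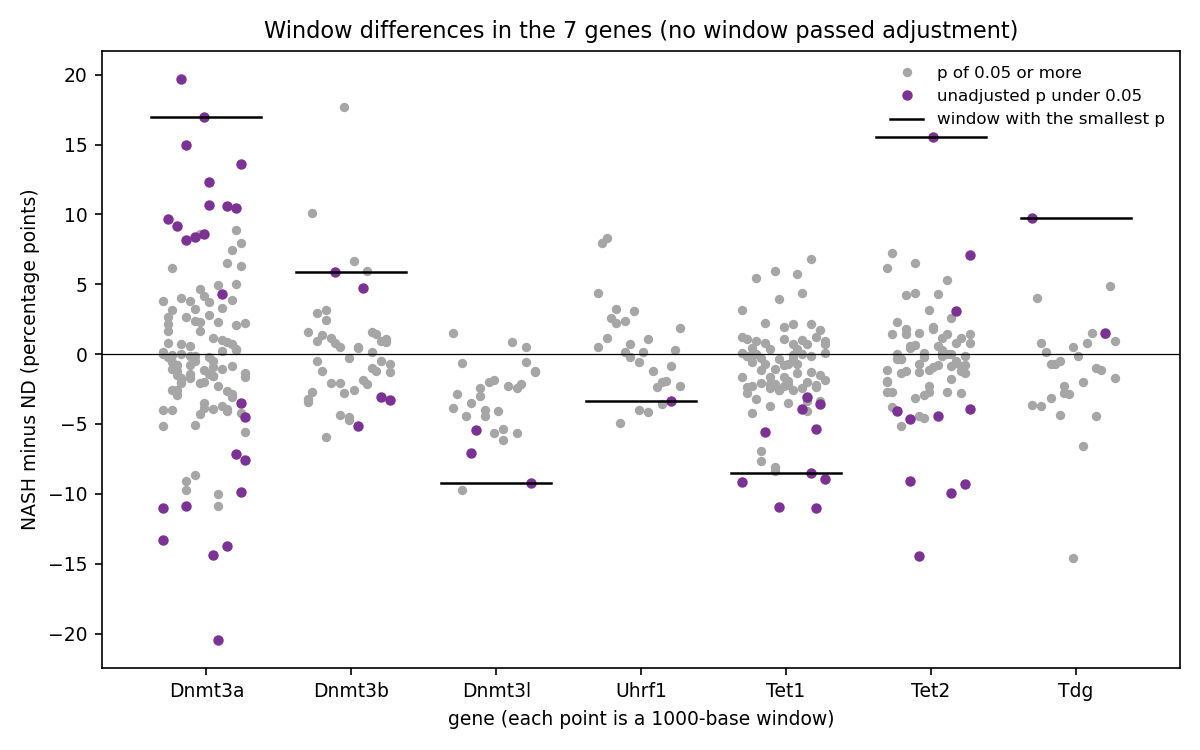
NASH minus ND difference (percentage points) of each of the 425 windows of the 7 genes, with windows at an unadjusted limma p under 0.05 in purple and the window with the smallest p of each gene marked by a line. Dnmt3a spreads widely in both directions, whereas Dnmt3l and the purple windows of Tet1 lie mostly below 0.

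Seen together by CpG density, the 7 genes had lower levels at dense positions than at sparse ones. Over all genes the median ND level was 12.8% at dense positions and 75.9% at sparse ones. In the dense positions the ND mean ran from 0.693% in Dnmt3b, 1.84% in Tet2 and 7.31% in Uhrf1 to 14.8% in Dnmt3a, 18.6% in Dnmt3l, 19.3% in Tdg and 25.6% in Tet1. None of the 7 was called there, as was none of the 12089 genes with such positions by limma, with either variance prior, although 726 (6.01%) had an unadjusted p under 0.05. In the sparse positions all 7 had a lower mean in NASH, as did 60.3% of all genes. The median difference was -0.42 points in the 7 genes and -0.31 over all genes. The difference was -0.097 points in Uhrf1, -0.17 in Dnmt3a, -0.18 in Tet2 and -0.42 in Dnmt3b. It was -1.11 in Tet1, -1.42 in Tdg and -2.77 in Dnmt3l, the one gene whose groups did not overlap. Dnmt3l was the gene called there. By adjusted p the next was Tet1, from 82.7% ± 0.397 to 81.6% ± 0.768 (SD, n = 4 each, limma adjusted p = 0.133). Over the 425 windows, 57 had an unadjusted p under 0.05 (13.4%, against 10.9% of all windows), 21 higher and 36 lower. Of these 57 windows, 25 were in Dnmt3a.

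Other genes of the same pathways were read from the fit over all genes, and of 46 listed 31 were measured. Among 10 writer partners, such as Uhrf2, Hells and Setdb1, and 4 methyl-CpG readers, such as Mbd2, none was called in either direction. Of 7 genes of demethylation and repair, 1 was called higher, against 5.99% of all spans, and 2 had a higher mean in NASH. The median difference of these 7 was -1.13 points. The called gene was Idh1, the isocitrate dehydrogenase that makes the alpha-ketoglutarate which Tet enzymes use. It went from 41.3% ± 0.550 to 45% ± 0.733 (SD, n = 4 each, limma adjusted p = 0.0040). Most calls were in the methyl donor cycle, which makes and uses S-adenosylmethionine. There 6 of 10 measured genes were called higher, against 5.99% of all spans, and none lower. The median difference was 4.82 points, against -0.28 over all genes. The list was chosen with earlier results of these data known, so its count beside the share over all spans is not a test of the list. Ahcy, which hydrolyses S-adenosylhomocysteine, went from 44.1% ± 0.750 to 55.9% ± 2.55, Gnmt, a glycine methyltransferase, from 44.3% ± 1.44 to 55.6% ± 2.73, and Mat1a, the liver form of the S-adenosylmethionine synthetase, from 45.6% ± 0.980 to 54.6% ± 2.34. Bhmt, Shmt1 and Pemt differed by 7.51, 5.03 and 4.60 points. Limma adjusted p-values of these 6 ran from 0.0016 to 0.0072. With only isolated zeros left out, these 6 and Idh1 all still passed. With every exact 0 left out, Ahcy and Bhmt still passed (adjusted p = 0.0085 and 0.0456), and Gnmt, Mat1a, Shmt1, Pemt and Idh1 did not (adjusted p 0.0670 to 0.291). Several of these are strongly expressed in hepatocytes, and the 8 hepatocyte markers had a median difference of 9.56 points; the part of hepatocyte share in these differences was not tested.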

How the data were processed

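The authors deposited one table of percent methylation per CpG cytosine, with a column for each of 8 liver libraries. Per the submitters' processing notes FastQC was used and the build is mm10. Which aligner, methylation caller or coverage filter was used is not given in the sources used here. Analysis covered 15 placed chromosomes, of which chromosome 5 was listed no further than position 117098872. The 85 contigs and 1 incomplete line were not used. Listed positions are 1 higher than RefSeq's, since all 290334 CpG cytosines of RefSeq start-site sequences were found only after that shift, and were corrected. Methylation was averaged without weights over listed positions (at least 6 per region). NASH and ND were compared with limma 3.58.1 (trended variance prior, R 4.3.3; tested on simulated data) over all regions of a kind, with Benjamini-Hochberg adjustment and calls at an adjusted p under 0.05. An isolated zero is an exact 0 where the median of the 10 nearest positions is at least 50%. Such zeros were 2.01 to 2.40% of positions per library. Zeros whose neighbours had a median of 0 were 9.15 to 9.43%. Leaving out every zero removes both. No library was a copy of another. Each gene of the set is named; the window with the smallest p per gene, the 3 nearest genes in level and the called related genes were named by rule. The genes and lists were chosen with earlier results of these data known.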

Additional observations from a re-analysis of the deposited data

Results flagged for a closer look

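In 7 of 150 groups of 4 libraries checked for the 7 genes, 1 library stood apart from the other 3 (Dixon's test at the 95% level). Chance alone does so in about 1 in 20 groups, close to the number found.

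At the start end of Dnmt3b, ND replicate 3 was at 10.4% and the others at 11.9 to 12.2%. At the Tet2 start site, NASH replicate 2 was at 3.14% and the others at 0 to 0.435%. At the Tdg start site, ND replicate 3 was at 0 and the others at 0.641 to 0.705%. At the internal start site of Dnmt3a, NASH replicate 1 was at 9.26% and the others at 0 to 0.926%. At the second start site of Uhrf1, ND replicate 2 was at 7.17%, with the others at 0.505 to 1.26%, and NASH replicate 4 was at 0.253%, with the others at 0. In the Dnmt3l window from 78054001, ND replicate 3 was at 87.1% and the others at 83.0 to 83.5%.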

How the results depend on the processing

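The depth is unknown, so no interval covers the reads behind a value. Dnmt3l stayed lower in NASH in each of 16 alternatives of its extended span, with limma adjusted p from 0.0164 to 0.171, and passed in 9. Among these 9, the limit of at least 20 positions repeats the reported fit. The span without flanks, also among them, is the gene body given above. None of the other 6 genes passed in the setting reported; with every zero left out Tet2 did (-1.53 points, adjusted p = 0.0499) and Dnmt3l did not (-2.08, adjusted p = 0.122). The cause was not tested.

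Same-numbered libraries of the diets did not vary together (correlations -0.0462 to 0.130), so the numbers were not read as pairs. With a replicate block the calls were 842 extended spans against 1366, 343 gene bodies against 1214 with 0 of the 7 genes against 1, 6 and 24 flanks on the low and high side of the coordinates against 403 and 421, and 0 gene ends, 0 windows and 0 start sites against 3, 4 and 2. With every zero left out they were 631 spans, 3 of the 31 related genes measured against 7, 235 bodies with 0 of the 7, 155 and 116 flanks, 0 ends, 1691 windows and 22 start sites. With isolated zeros left out none of the 7 genes was called over spans, bodies or sparse positions (0 in each), and 14 ends were. On a logit scale the calls were 12 ends, 10 windows and 0 start sites, and with at least 20 positions 5 ends, 214 windows and 0 start sites. The robust prior, chosen after seeing the data like the start sites, gave 119 ends and 0 windows. Ends of 2000 and 500 bases either way gave 696 and 0 calls, windows of 2000 and 500 bases 368 and 21, and a density limit of 14 positions 25 genes in dense positions.

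Leaving out each library gave 758 to 1460 spans, 600 to 1160 bodies, 93 to 265 and 143 to 235 flanks, 0 to 2 ends, 1219 to 2472 genes in sparse positions, 8 to 27 windows and 0 to 1 start sites, with 0 to 1 of the 7 genes over spans and over bodies. By library Tdg ran from -1.34 to -0.57 and Dnmt3b from -0.79 to -0.044. Some differences changed sign: Dnmt3a was at -0.051 with isolated zeros out, -1.53 with every zero out, beyond its reported 95% interval, and -0.10 to 0.47 by library; Uhrf1 at -0.49 with every zero out, -0.60 without the flanks and -0.27 to 0.33 by library; Tet2 at 0.069 without the flanks and -0.30 to 0.059 by library. The first 500 bases of the Dnmt3l window from 78054001 were at 2.98 points, where the whole window was at -9.22.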
